A study of Saccharomyces cerevisiae with 23 samples.

Results

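GLC7, PHO85, KIN28, MOB1 and MOB2 are the 5 intron-bearing yeast genes described here. They encode a protein phosphatase, 2 cyclin-dependent kinases and 2 kinase activators, which act in cell division, nutrient signalling or transcription. They were chosen by systematic name (YER133W, YPL031C, YDL108W, YIL106W and YFL034C-B), each has 1 intron in the tables, and they are 5 of the 284 introns listed in any library. In multiplexed primer extension sequencing, reverse transcription starts from primers beside chosen introns, so that a read tells whether the RNA still held the intron (premature) or had lost it (mature). Budding yeast of the BY background was grown in minimal medium with 2% glucose and harvested in log phase or at 48 h, which the labels also call stationary phase or saturation. The strains were wild type, in the labelled sets WTa and WTb, and the mutants mud1D and nam8D, named for the genes MUD1 and NAM8 of the U1 splicing particle. The labels also give each library 1 of 4 strain names (JPY10H3, JPY2863, JPY28H5 and JPY28A8), which vary within groups and recur across genotypes. The 23 libraries form 8 groups of 3, except WTa in log phase with 2. The labels do not say whether libraries of a group came from separate cultures, so p-values measure the spread between these libraries, which may be technical.

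U1 is the particle that first pairs with the 5′ splice site of an intron, and Mud1 and Nam8 are 2 of its proteins that yeast can live without under ordinary growth. Glc7 is the catalytic subunit of type 1 protein phosphatase and opposes many kinases, from glucose signalling to chromosome segregation. Pho85 is a cyclin-dependent kinase that works with several cyclins in phosphate and nutrient signalling, and Kin28 is the cyclin-dependent kinase of the general transcription factor TFIIH, which phosphorylates the tail of RNA polymerase II. Mob1 activates the kinase Dbf2 in the mitotic exit network, and Mob2 activates Cbk1, a kinase of cell separation and polarised growth. Neither Mob protein is itself a kinase.

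The introns of GLC7, PHO85, KIN28 and MOB2 are shown because their splice sites are nearly alike while their premature counts relative to mature ones were not. The sequences are from the RefSeq R64 genome, the build named in the submitters' processing notes, and read 5′ to 3′ on the gene's strand. Capitals mark the first 6 bases, the branch site motif of 7 bases and the last 3 bases. The GLC7 intron, at V:432672-433196 on the plus strand, has 525 bases and is longer than 247 of the 260 listed introns that matched an annotated intron, so its first 40 and last 120 bases are given. The others are whole: PHO85 at XVI:492919-493020 on the minus strand (102 bases), KIN28 at IV:267726-267806 on the plus strand (81 bases) and MOB2 at VI:63860-63973 on the minus strand (114 bases). No other annotated gene overlaps any of the 5 genes.
GLC7, first 40 bases: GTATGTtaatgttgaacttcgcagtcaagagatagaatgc
GLC7, last 120 bases: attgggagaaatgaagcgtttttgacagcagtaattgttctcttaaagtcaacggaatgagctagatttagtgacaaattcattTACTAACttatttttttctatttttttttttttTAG
PHO85: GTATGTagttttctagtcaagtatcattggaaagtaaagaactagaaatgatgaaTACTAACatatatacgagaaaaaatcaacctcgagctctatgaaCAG
KIN28: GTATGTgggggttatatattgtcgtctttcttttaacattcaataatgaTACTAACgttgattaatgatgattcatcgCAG
MOB2: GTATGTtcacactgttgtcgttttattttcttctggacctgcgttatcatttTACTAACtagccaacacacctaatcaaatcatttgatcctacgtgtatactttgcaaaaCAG

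These 4 introns begin with GTATGT, as do 198 of the 260 annotated introns (76.2%). TACTAAC, searched on the gene's strand only, is present in all 4 and in 213 of 260 introns (81.9%). The last A of this motif lies 26 bases before the intron's end in KIN28, 30 in GLC7, 41 in PHO85 and 56 in MOB2. Bases 7 to 30, just past the 5′ splice site, hold 13 T in MOB2, 11 in KIN28, 10 in PHO85 and 7 in GLC7, against a median of 8 over the 260 introns, of which 17 hold more than 13. This window was chosen after the values were seen.

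Library totals ran from 6693650 to 12068685 counts in log phase and from 3343811 to 5910393 at 48 h. MUD1 had 1 mature count in a single mud1D library and none in the other mud1D libraries, against 1328 to 5543 mature counts in the other 17 libraries. Ribosomal protein genes held 89.0% to 90.5% of counts in log phase and 64.2% to 76.8% at 48 h, which weighs on every level given relative to a library's total. Genes of a meiosis list summed to between 182 and 336 counts per 1000000 (CPM) in log phase and between 531 and 1044 CPM at 48 h. The part of either shift in the results below was not tested. Of the introns in any table, 265 were listed in every library with a mean of at least 20 counts, and all 5 introns described here were among them. The premature share is the percentage of an intron's counts that were premature, and the tested value is the change of log2 premature over mature, with its standard error (SE), from edgeR's quasi-likelihood test. Both products are levels at harvest, so splicing and the decay of either product cannot be told apart. An intron called better or less spliced below is one with a lower or higher premature share or ratio. Adjusted p-values are Benjamini-Hochberg values over the 265 introns, with a threshold of 0.05. Both mutants were compared with the same wild-type libraries, so their differences from wild type are not independent of each other. The pooled wild type (5 log-phase and 6 later libraries) is the mean of the 2 sets.

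GLC7 had a premature share that differed more between the wild-type sets than between growth phases. In log phase the share was 8.81% and 9.11% in WTa and 15.1%, 14.7% and 14.9% in WTb. At 48 h it was 6.83%, 5.98% and 6.48% in WTa and 16.8%, 16.5% and 16.0% in WTb. No WTa library reached any WTb library in either phase, and the log2 difference of WTa from WTb was -0.83 (SE 0.14, adjusted p = 1.5e-05) in log phase and -1.52 (SE 0.13, adjusted p = 5.8e-12) at 48 h. With both sets together the wild-type change at 48 h did not pass (-0.18, SE 0.09, adjusted p = 0.086). In WTa alone the log2 ratio fell by 0.52 (SE 0.14, adjusted p = 0.0014), and in WTb alone the value was 0.17 (SE 0.13, adjusted p = 0.23).

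In the mutants the GLC7 intron was less spliced at 48 h than in log phase. The share in mud1D was 14.8%, 17.96% and 15.3% in log phase and 22.1%, 27.7% and 27.3% at 48 h, a log2 rise of 0.86 (SE 0.13, adjusted p = 1.6e-07). The share in nam8D was 16.1%, 14.96% and 14.3% in log phase and 19.3%, 23.6% and 21.9% at 48 h, a rise of 0.62 (SE 0.13, adjusted p = 2.8e-05). In both mutants each 48 h library lay above each log-phase library. At 48 h premature GLC7 RNA stood at 293 ± 14.7 CPM in WTa, 494 ± 50.3 in WTb, 1135 ± 60.4 in mud1D and 856 ± 116 in nam8D (mean ± SD, n = 3 each). Mature RNA was 4276 ± 312, 2506 ± 216, 3310 ± 394 and 3097 ± 34.0 CPM in the same order. The mutants' mature levels thus lay between those of the wild-type sets and their premature levels above both. Against pooled wild type at 48 h the log2 ratio was 1.57 higher in mud1D (SE 0.11, adjusted p = 8.9e-15) and 1.24 higher in nam8D (SE 0.11, adjusted p = 2.1e-12). Against WTb alone these differences were 0.81 (SE 0.12, adjusted p = 6.3e-07) and 0.48 (SE 0.12, adjusted p = 0.0008). Against WTa alone they were 2.33 (SE 0.13, adjusted p = 1.1e-17) and 2.00 (SE 0.13, adjusted p = 4.2e-16). In log phase the ratio passed against pooled wild type in mud1D (0.54, SE 0.11, adjusted p = 0.00018) and in nam8D (0.44, SE 0.11, adjusted p = 0.0021). Against WTb alone neither passed, with 0.12 in mud1D (adjusted p = 0.49) and 0.03 in nam8D (adjusted p = 0.92).

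**Figure D1:**
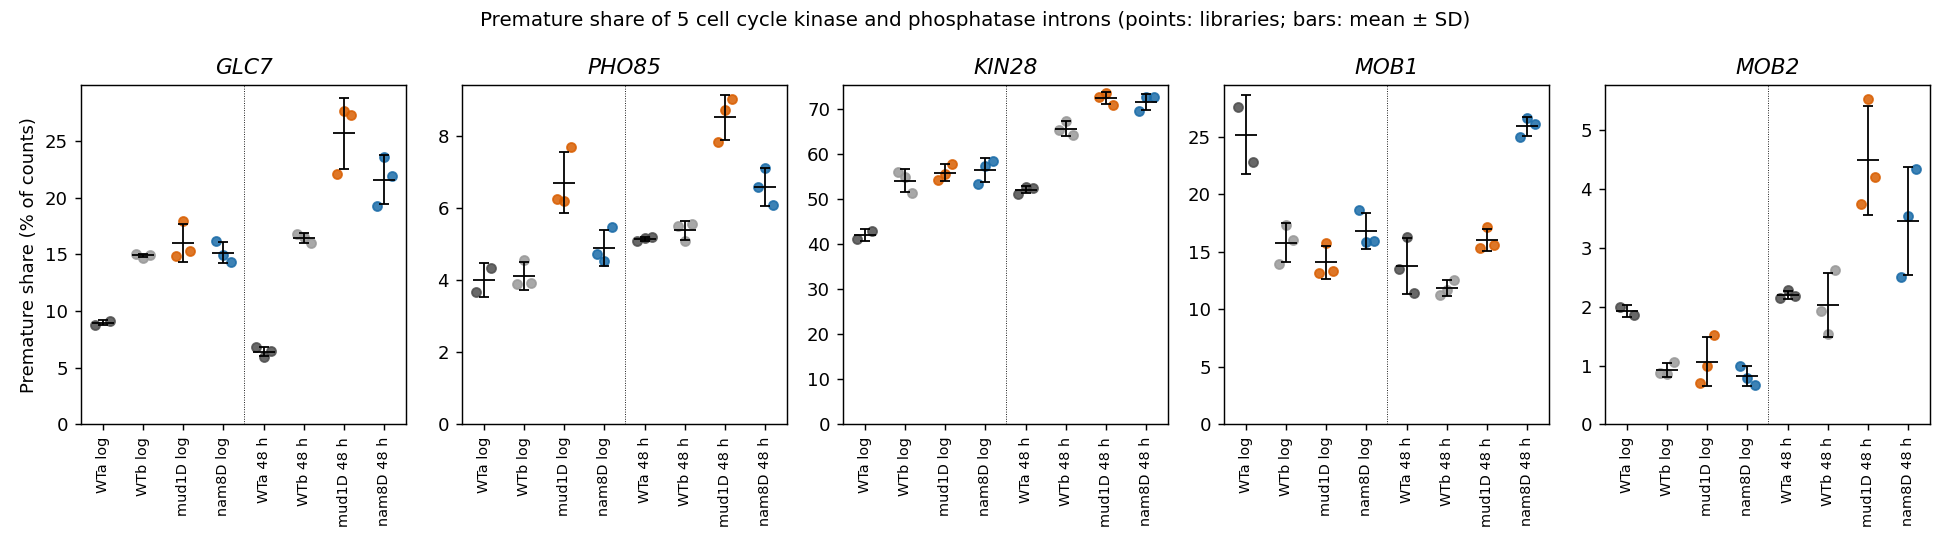
Premature share (vertical axis, % of an intron's counts) of each of the 5 introns in every library, by group (horizontal axis), with log phase left and 48 h right of the dotted line; points are libraries, and bars are the mean ± SD. KIN28 lies above 41% in every library, MOB2 below 5.6% in every library, and GLC7 stands lower in WTa than in WTb in both phases.

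PHO85, the nutrient-signalling kinase, differed from GLC7 in that its share overlapped between the 2 wild-type sets and its log-phase rise in mud1D passed against either set alone. In log phase its premature share was 3.68% and 4.33% in WTa, 3.89%, 4.57% and 3.92% in WTb, 6.25%, 6.19% and 7.70% in mud1D and 4.72%, 4.52% and 5.47% in nam8D. Every mud1D library lay above every other log-phase library. The log2 ratio in mud1D was 0.76 higher than in pooled wild type (SE 0.12, adjusted p = 1.6e-06), 0.79 higher than in WTa alone (SE 0.14, adjusted p = 2e-05) and 0.74 higher than in WTb alone (SE 0.13, adjusted p = 2.9e-05). In nam8D the difference from pooled wild type in log phase was 0.28 (SE 0.12, adjusted p = 0.054), and the ratio was lower than in mud1D by -0.48 (SE 0.13, adjusted p = 0.0045), a call lost when libraries were centred on their median intron (-0.14, adjusted p = 0.28). The WTa and WTb values did not pass a test of their difference in log phase (adjusted p = 0.79) or at 48 h (adjusted p = 0.67). With libraries centred on their median intron, the difference at 48 h was called.

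At 48 h the PHO85 share was 5.08%, 5.19% and 5.19% in WTa, 5.51%, 5.08% and 5.57% in WTb, 7.83%, 8.72% and 9.02% in mud1D and 6.59%, 7.13% and 6.08% in nam8D. The mutant libraries lay above all wild-type libraries, and mud1D above nam8D, without overlap. The log2 rise from log phase was 0.40 in wild type (SE 0.10, adjusted p = 0.00041), 0.38 in mud1D (SE 0.13, adjusted p = 0.0073) and 0.46 in nam8D (SE 0.13, adjusted p = 0.0018). The difference between the mutant's and the wild type's rise did not pass for mud1D (adjusted p = 0.91) or nam8D (adjusted p = 0.74). With libraries centred on their median intron the change of PHO85 lay below that of wild type in mud1D (-0.51, adjusted p = 0.0026) and in nam8D (-0.77, adjusted p = 8.5e-05). At 48 h the ratio was higher than in wild type by 0.74 in mud1D (SE 0.11, adjusted p = 1.3e-07) and 0.34 in nam8D (SE 0.11, adjusted p = 0.0045). Premature PHO85 RNA at 48 h was 124 ± 5.68 CPM in WTa, 137 ± 3.51 in WTb, 274 ± 31.9 in mud1D and 134 ± 28.0 in nam8D (SD, n = 3 each). Mature PHO85 RNA was 2290 ± 92.0, 2406 ± 139, 2972 ± 594 and 1904 ± 380 CPM in that order. The nam8D premature level was near the wild-type levels, while its mean mature level was the lowest of the 4.

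KIN28, the TFIIH kinase, had the highest premature share of the 5 introns in every library, between 41.1% and 73.5%. In log phase the share was 41.1% and 42.9% in WTa, 56.1%, 54.9% and 51.3% in WTb, 54.2%, 55.5% and 57.9% in mud1D and 53.4%, 57.3% and 58.5% in nam8D. WTa stood below the other strains, whose libraries overlapped. At 48 h the share was 51.1%, 52.7% and 52.5% in WTa, 65.3%, 67.4% and 64.2% in WTb, 72.7%, 73.5% and 71.0% in mud1D and 69.6%, 72.7% and 72.7% in nam8D. Within each strain every 48 h library lay above every log-phase library, and at 48 h the mutants overlapped with each other but not with WTb. Among the 265 introns, 10 to 25 had a higher mean share than KIN28, depending on the group.

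The log2 ratio of KIN28 rose at 48 h by 0.64 in wild type (SE 0.09, adjusted p = 5.1e-08), 1.05 in mud1D (SE 0.12, adjusted p = 6.4e-10) and 0.96 in nam8D (SE 0.12, adjusted p = 4.2e-09). The rise was present in WTa alone (0.59, adjusted p = 0.00016) and in WTb alone (0.70, adjusted p = 3.2e-06). Both products took a larger part of the library at 48 h. Mature KIN28 RNA went from 164 ± 6.42 (n = 2) to 343 ± 8.41 CPM in WTa, from 121 ± 4.98 to 281 ± 13.9 in WTb, from 139 ± 11.6 to 309 ± 18.2 in mud1D and from 135 ± 10.9 to 284 ± 20.5 in nam8D (SD, n = 3). Premature KIN28 RNA went from 118 ± 1.65 (n = 2) to 373 ± 21.6 CPM in WTa, from 144 ± 19.4 to 540 ± 63.4 in WTb, from 176 ± 11.5 to 812 ± 71.3 in mud1D and from 174 ± 5.13 to 717 ± 13.7 in nam8D. The mature level in the mutants at 48 h was 1.10 times (mud1D) and 1.01 times (nam8D) that of WTb, and the premature level 1.504 and 1.33 times. Against pooled wild type at 48 h the log2 ratio was 0.86 higher in mud1D (SE 0.10, adjusted p = 1.5e-09) and 0.81 higher in nam8D (SE 0.10, adjusted p = 6e-09). Against WTb alone these were 0.46 (SE 0.12, adjusted p = 0.00062) and 0.40 (SE 0.12, adjusted p = 0.0025). The log-phase differences of 0.46 in mud1D (SE 0.11, adjusted p = 0.00057) and 0.49 in nam8D (SE 0.11, adjusted p = 0.00056) did not pass against WTb alone (0.10, adjusted p = 0.54, and 0.13, adjusted p = 0.54). WTa lay below WTb by -0.71 in log phase (SE 0.13, adjusted p = 5.5e-05) and -0.81 at 48 h (SE 0.12, adjusted p = 4.9e-07). The larger rise in the mutants passed at 0.41 for mud1D (SE 0.15, adjusted p = 0.015) and 0.32 for nam8D (SE 0.15, adjusted p = 0.046), and did not pass with WTb alone as wild type (0.35, adjusted p = 0.069, and 0.27, adjusted p = 0.16). With WTa alone as wild type the mud1D value passed and the nam8D value did not. The mud1D value was also lost without replicate 2 of mud1D at 48 h (0.37, adjusted p = 0.053), and the nam8D value when any of 15 of the 23 libraries was left out, with values from 0.23 to 0.35.

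**Figure D2:**
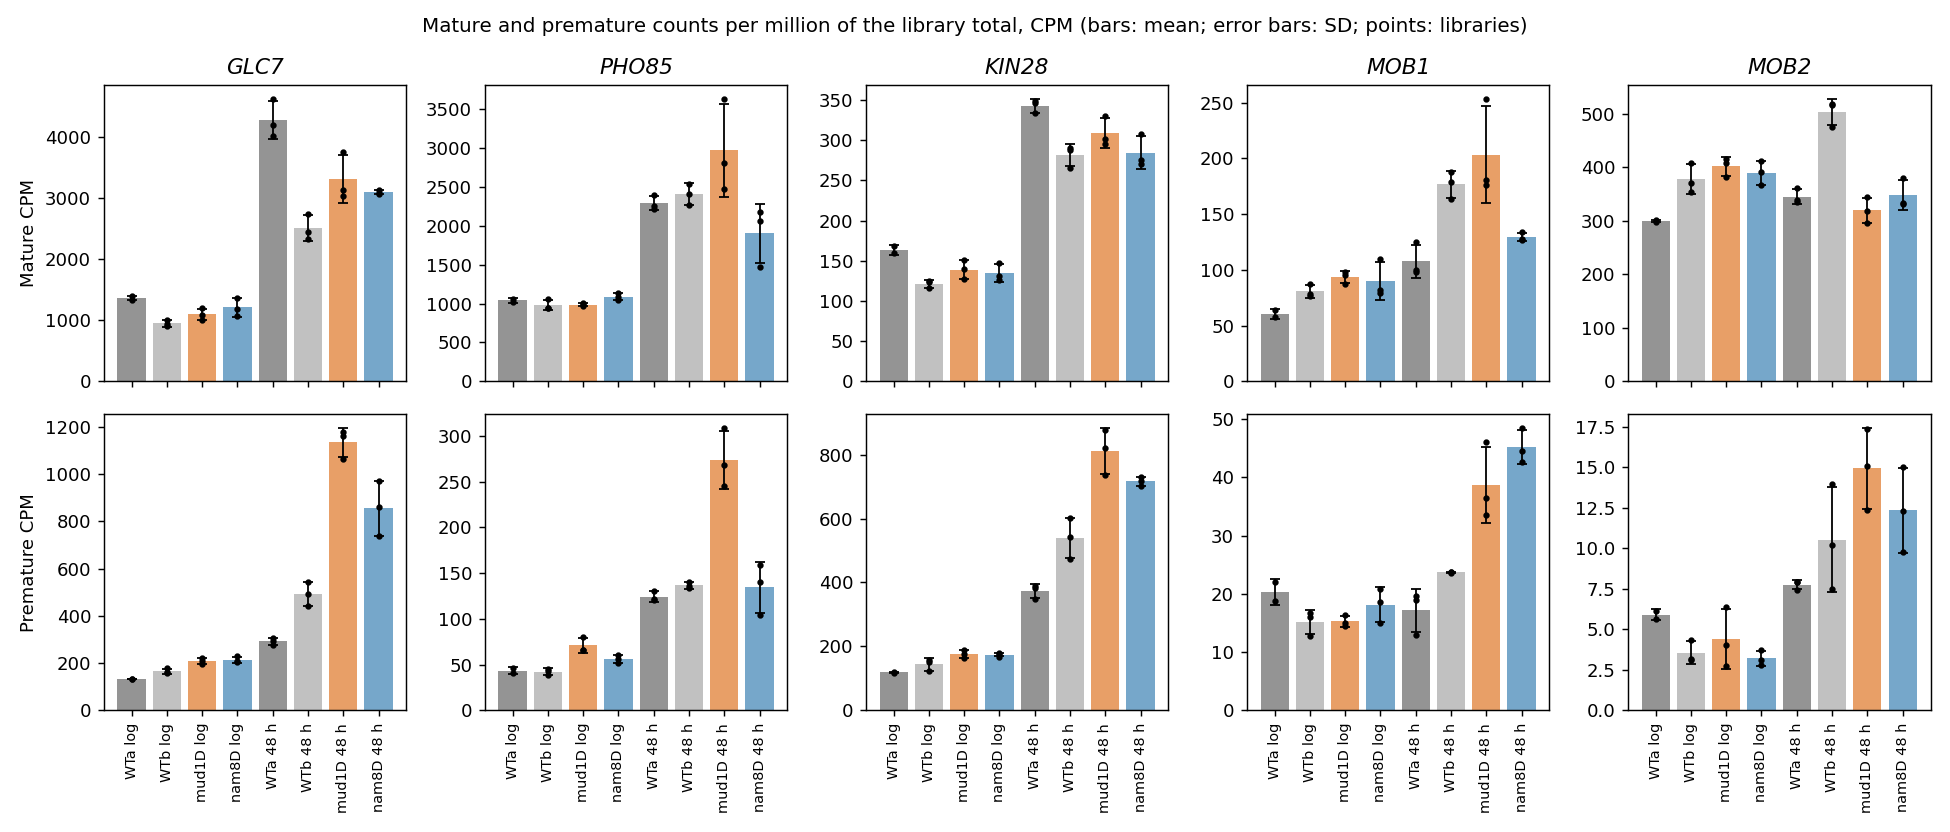
Mature (upper row) and premature (lower row) counts of the 5 genes, in CPM of the library total on linear axes that start at 0 and differ between panels; bars are group means, error bars the SD and points the libraries. For KIN28 at 48 h the mature bars lie between 281 and 343 CPM and the premature bars between 373 and 812 CPM, highest in mud1D.

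MOB1, the mitotic exit activator, had a lower premature share at 48 h than in log phase in wild type and a higher one in nam8D. In log phase its premature share was 27.6% and 22.8% in WTa, 14.0%, 17.3% and 16.1% in WTb, 13.2%, 15.7% and 13.3% in mud1D and 18.6%, 15.9% and 15.9% in nam8D. WTa stood above the rest, by 0.85 over WTb on the log2 scale (SE 0.17, adjusted p = 0.00013). At 48 h it was 13.5%, 16.3% and 11.4% in WTa, 11.2%, 11.7% and 12.6% in WTb, 15.4%, 17.2% and 15.6% in mud1D and 25.0%, 26.6% and 26.1% in nam8D. The nam8D libraries stood apart from all others at 48 h. MOB1 has the fewest counts of the 5 genes, 621 to 1015 per library with 76 to 265 premature, and the exact 95% binomial interval of a library's share spanned up to 6.78 percentage points, which covers counting error only.

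The MOB1 ratio fell by 0.79 on the log2 scale in wild type at 48 h (SE 0.12, adjusted p = 4.2e-07), by 1.09 in WTa alone (SE 0.18, adjusted p = 1.4e-06) and by 0.48 in WTb alone (SE 0.17, adjusted p = 0.0096). In nam8D it rose by 0.79 (SE 0.16, adjusted p = 1.9e-05). In mud1D the value was 0.22 and did not pass (SE 0.16, adjusted p = 0.21). The difference between nam8D and wild type in this change was 1.58 (SE 0.20, adjusted p = 2.7e-08), or 1.28 with WTb alone as wild type (SE 0.23, adjusted p = 2.2e-05), and that between mud1D and wild type was 1.01 (SE 0.20, adjusted p = 5.3e-05). At 48 h the ratio was 1.26 above wild type in nam8D (SE 0.14, adjusted p = 2.3e-10) and 0.88 above mud1D (SE 0.15, adjusted p = 5.7e-05). In mud1D it was 0.39 above wild type (SE 0.14, adjusted p = 0.011), a call lost against WTa alone (0.26, adjusted p = 0.13) and without replicate 2 of mud1D at 48 h (0.33, adjusted p = 0.055). In log phase it was lower in mud1D by -0.62 (SE 0.14, adjusted p = 0.00049), which did not pass against WTb alone (-0.19, adjusted p = 0.39). The mean mature MOB1 level at 48 h was 1.78 (WTa), 2.19 (WTb) and 1.43 (nam8D) times that in log phase. The mean premature level was 0.842, 1.56 and 2.49 times that in log phase, in the same order. Premature MOB1 RNA at 48 h was 17.1 ± 3.72 CPM in WTa, 23.7 ± 0.108 in WTb, 38.6 ± 6.53 in mud1D and 45.2 ± 2.96 in nam8D, and mature RNA 108 ± 15.1, 177 ± 12.3, 203 ± 43.2 and 129 ± 3.78 CPM (SD, n = 3 each). Compared with WTb at 48 h, nam8D held 1.91 times the premature and 0.731 times the mature level. Its mature level lay above that of WTa and was 0.909 times that of pooled wild type, while its premature level lay above both sets.

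MOB2, the activator of Cbk1, was the best spliced of the 5 and showed the largest log2 rises of the 5 in the mutants at 48 h, on few premature counts. In log phase its premature share was 2.00% and 1.86% in WTa, 0.874%, 0.849% and 1.06% in WTb, 0.706%, 0.984% and 1.51% in mud1D and 0.998%, 0.796% and 0.675% in nam8D. At 48 h it was 2.14%, 2.28% and 2.18% in WTa, 1.93%, 1.54% and 2.62% in WTb, 3.74%, 5.53% and 4.21% in mud1D and 2.5%, 3.54% and 4.34% in nam8D. In WTa, WTb and both mutants every 48 h library lay above every log-phase library, in WTa narrowly (2.14% against 2.00% at the closest). At 48 h 1 nam8D library fell within the range of WTb. These shares rest on 19 to 74 premature counts per library, and a library's exact 95% interval spanned up to 2.86 percentage points.

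The MOB2 ratio rose by 2.10 in mud1D (SE 0.25, adjusted p = 1.7e-09), by 2.09 in nam8D (SE 0.26, adjusted p = 5.9e-09) and by 0.67 in wild type (SE 0.18, adjusted p = 0.0013). The wild-type rise was 1.14 in WTb alone (SE 0.26, adjusted p = 0.00021) and did not pass in WTa alone (0.19, SE 0.26, adjusted p = 0.52). In WTa the log2 ratio in log phase was already 1.07 above that of WTb (SE 0.28, adjusted p = 0.0018). The mutant rise exceeded that of wild type by 1.44 in mud1D (SE 0.31, adjusted p = 0.00013) and 1.42 in nam8D (SE 0.32, adjusted p = 0.00023), and with WTb alone by 0.96 (SE 0.37, adjusted p = 0.025) and 0.95 (SE 0.38, adjusted p = 0.032). At 48 h the ratio was 1.11 above wild type in mud1D (SE 0.21, adjusted p = 7.9e-06) and 0.70 above it in nam8D (SE 0.20, adjusted p = 0.0018), and neither passed after centring on the median intron. Premature MOB2 RNA at 48 h was 7.75 ± 0.267 CPM in WTa, 10.5 ± 3.26 in WTb, 14.9 ± 2.49 in mud1D and 12.4 ± 2.63 in nam8D (SD, n = 3 each). Mature MOB2 RNA was 345 ± 14.2, 504 ± 24.0, 320 ± 23.8 and 349 ± 28.0 CPM, so that the mutants lay near WTa and below WTb. In log phase the ratio in nam8D was lower by -0.72 (SE 0.25, adjusted p = 0.025), a call that did not pass against WTb alone (-0.18, adjusted p = 0.70). This log-phase call was also lost without replicate 2 of WTa (-0.69), replicate 3 of WTb (-0.66), or replicate 2 (-0.70) or 3 (-0.59, adjusted p = 0.14) of nam8D.

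Ordered by mean share, the groups ran from 6.43% (WTa at 48 h) to 25.7% (mud1D at 48 h) for GLC7. They ran from 4.01% (WTa in log phase) to 8.53% (mud1D at 48 h) for PHO85 and from 42.0% (WTa in log phase) to 72.4% (mud1D at 48 h) for KIN28. The range was 11.8% (WTb at 48 h) to 25.9% (nam8D at 48 h) for MOB1 and 0.823% (nam8D in log phase) to 4.49% (mud1D at 48 h) for MOB2. A mutant at 48 h was the highest group for each of the 5. Its libraries overlapped the next group's for GLC7, KIN28 and MOB2, where the other mutant at 48 h came next, and for MOB1, where WTa in log phase did. For PHO85 they did not overlap those of mud1D in log phase, which came next. The middle of each order holds neighbours that overlap, such as WTb, nam8D and mud1D in log phase and WTb at 48 h for GLC7.

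The counts of members called must be read against all 265 introns, most of which moved at 48 h. In wild type at 48 h against log phase, 3 of the 5 introns rose and 1 fell, while 51.7% of all introns were called higher and 28.7% lower. In mud1D 4 of 5 rose (64.9% of all higher, 15.5% lower) and in nam8D 5 of 5 (70.9% higher, 9.81% lower). At 48 h all 5 were higher than in pooled wild type in mud1D (90.6% of all higher, 1.13% lower) and in nam8D (88.3% higher, 1.13% lower), a share near that of introns in general. The median of the 5 log2 changes at 48 h was 0.86 in mud1D and 0.81 in nam8D against wild type, beside 1.11 and 1.01 over all 265. In log phase 3 were higher and 1 lower in mud1D (47.9% of all higher, 7.92% lower), and 2 were higher and 1 lower in nam8D (29.4% higher, 7.17% lower). Against WTb alone 1 of 5 was higher in mud1D in log phase, PHO85 (29.8% of all higher, 1.51% lower), and none in nam8D (11.7% higher, 0.755% lower). At 48 h all 5 were higher than in WTb alone in mud1D (84.9% of all higher, 1.51% lower) and in nam8D (79.6% higher, 1.89% lower).

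Between the mutants, nam8D was lower than mud1D for 1 of 5 introns in log phase (PHO85; 10.9% of all introns were higher and 25.3% lower). At 48 h it was higher for MOB1 and lower for PHO85 and GLC7 (9.43% of all higher, 17.7% lower). The 48 h difference of PHO85 was -0.40 (SE 0.13, adjusted p = 0.018) and was not called without replicate 2 or 3 of mud1D or replicate 3 of nam8D at 48 h, with values from -0.38 to -0.34. The GLC7 difference of -0.32 (SE 0.12, adjusted p = 0.0496) lay at the threshold and was lost when any of 19 of the 23 libraries was left out (-0.34 to -0.22). The signed change from log phase to 48 h lay above that of wild type for 4 of 5 introns in mud1D (65.3% of all above, 4.91% below). It did so for the same 4 in nam8D (76.6% of all above, 3.02% below). For MOB1, 1 of the 4, the wild-type change was a fall. Between the wild-type sets, WTa was higher than WTb for 2 introns and lower for 2 in log phase (17.0% of all higher, 30.2% lower) and lower for 2 at 48 h (5.66% higher, 51.3% lower).

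When each library was centred on its median intron and tested with limma, the members split in direction. At 48 h against log phase in wild type GLC7 fell (-0.45, adjusted p = 0.00025) and PHO85 did not pass (0.12, adjusted p = 0.16). In nam8D PHO85 (-0.65, adjusted p = 8.6e-06) and GLC7 (-0.48, adjusted p = 0.0021) rose less than the median intron and only MOB2 of the 5 was called above it. In mud1D PHO85 (-0.39, adjusted p = 0.0018) and MOB1 (-0.54, adjusted p = 0.0032) lay below the median intron, KIN28 and MOB2 above it, and GLC7 did not pass (0.09, adjusted p = 0.53). For the mutants against wild type at 48 h, GLC7 stayed above in mud1D (0.66, adjusted p = 3.8e-05) and nam8D (0.34, adjusted p = 0.012), and MOB1 in nam8D (0.36, adjusted p = 0.025). PHO85 in nam8D (-0.56, adjusted p = 2.3e-05) and MOB1 in mud1D (-0.51, adjusted p = 0.0027) lay below the median intron. KIN28 passed in neither mutant (-0.04 in mud1D and -0.09 in nam8D), nor did MOB2 (0.22, adjusted p = 0.26, and -0.19, adjusted p = 0.34). In log phase KIN28 (0.04, adjusted p = 0.75) and GLC7 (0.12, adjusted p = 0.39) no longer passed in mud1D. Between the mutants in log phase PHO85 was no longer called, while KIN28 (0.37, adjusted p = 0.013) and MOB1 (0.64, adjusted p = 0.0021) were called higher in nam8D. The change from log phase to 48 h in nam8D lay below that of wild type for KIN28 (-0.51, adjusted p = 0.011). The GLC7 (-0.03, adjusted p = 0.91) and MOB2 (0.59, adjusted p = 0.064) differences did not pass.

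**Figure D3:**
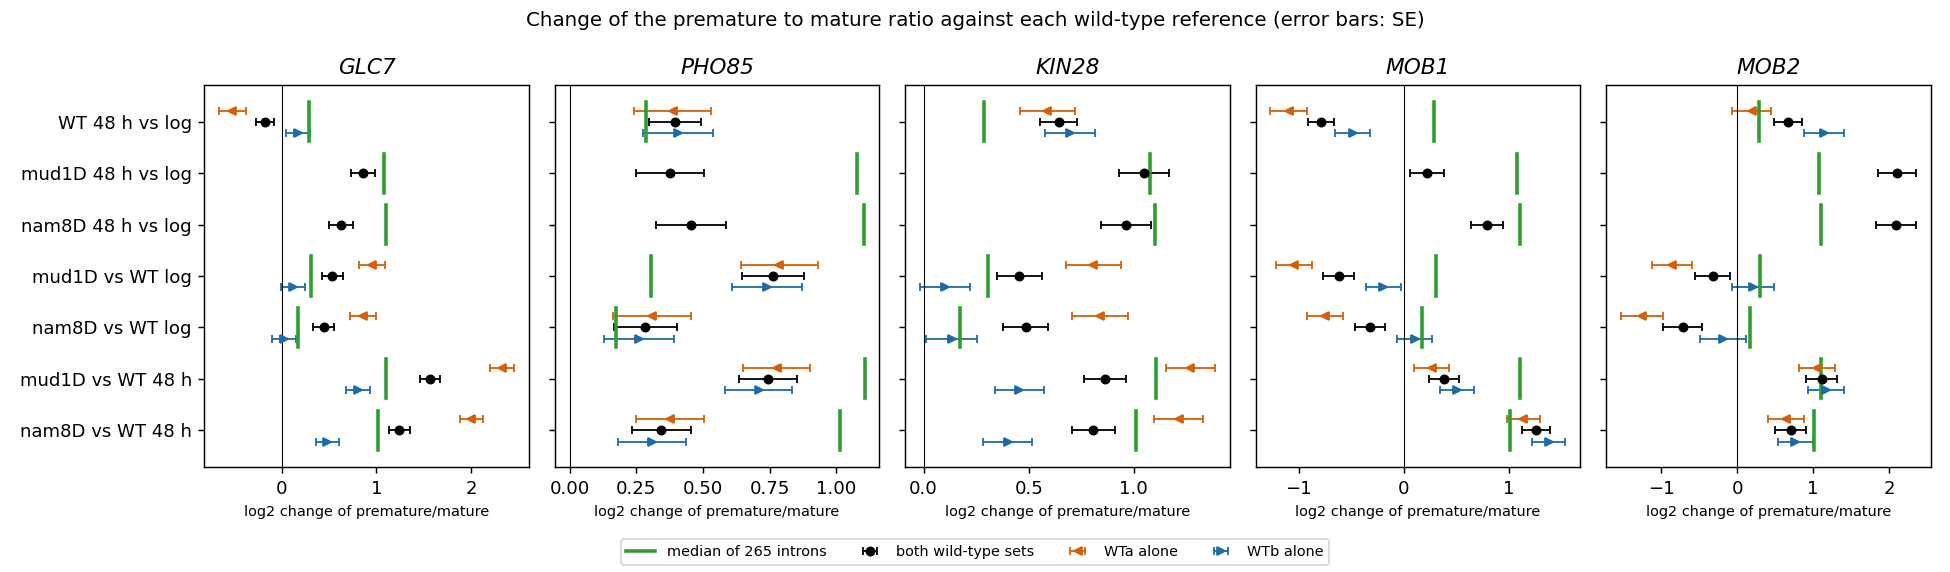
Change of log2 premature over mature (horizontal axis) of each intron in 7 comparisons (vertical axis), with both wild-type sets (black circles), WTa alone (orange, pointing left) or WTb alone (blue, pointing right) as wild type; error bars are the SE and green lines the median of the 265 introns. Comparisons of 48 h with log phase within a mutant hold no wild type and show black circles only. In the comparisons of a mutant with wild type, the WTa and WTb values lie apart for GLC7 and KIN28 and close together for PHO85. In log phase they lie apart for MOB1 and MOB2 too. In wild type at 48 h against log phase they lie apart for GLC7, MOB1 and MOB2. MOB1 lies below 0 there with either wild-type set, and above 0 in nam8D at 48 h against log phase.

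The summed counts of a gene, premature plus mature, were tested relative to the other primed targets with TMM scaling, which estimates library factors from the bulk of the targets. A lower level per cell and fewer cells holding the RNA cannot be told apart. At 48 h against log phase in wild type, 4 of the 5 genes were more abundant under this scaling (52.5% of all targets were higher, 38.1% lower), a direction that PHO85 and MOB1 did not keep when ribosomal protein genes were left out of it. The log2 changes were 1.27 for GLC7 (SE 0.07, adjusted p = 4e-15), 1.24 for KIN28 (SE 0.07, adjusted p = 7.6e-15), 0.99 for PHO85 (SE 0.09, adjusted p = 1.5e-10) and 0.59 for MOB1 (SE 0.09, adjusted p = 1.4e-06). MOB2 was at 0.07 (adjusted p = 0.22). In mud1D the same 4 rose and MOB2 fell by 0.58 (SE 0.07, adjusted p = 5.6e-08; 50.2% of all higher, 41.5% lower). In nam8D the same 4 rose and MOB2 fell by 0.36 (SE 0.07, adjusted p = 4.3e-05; 47.5% higher, 41.1% lower). Scaled by library totals, MOB2 rose in wild type (0.33, adjusted p = 1.1e-05) and was not called in nam8D (-0.11, adjusted p = 0.20). When the factors were taken from targets outside the ribosomal protein genes, the median change of all targets in wild type moved from 0.18 to -0.90. The rises of GLC7 and KIN28 then shrank to 0.19 (adjusted p = 0.0041) and 0.16 (adjusted p = 0.015), PHO85 was at -0.09 (adjusted p = 0.22), MOB1 at -0.48 (adjusted p = 2.4e-06) and MOB2 at -1.003 (adjusted p = 1e-13). In the mutants this scaling put MOB1 at -0.14 in mud1D (adjusted p = 0.19) and -0.29 in nam8D (adjusted p = 0.011), and PHO85 at -0.15 in nam8D (adjusted p = 0.12).

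In mud1D at 48 h, 4 of 5 genes were more abundant than in wild type and MOB2 less so (35.1% of all higher, 41.1% lower). The log2 changes were 0.58 for MOB1 (SE 0.10, adjusted p = 1.7e-05), 0.52 for KIN28 (SE 0.07, adjusted p = 8.4e-07), 0.36 for PHO85 (SE 0.10, adjusted p = 0.0021), 0.23 for GLC7 (SE 0.07, adjusted p = 0.0056) and -0.38 for MOB2 (SE 0.06, adjusted p = 1e-05). On mature counts alone the KIN28 and GLC7 calls were lost, at 0.09 (adjusted p = 0.25) and 0.11 (adjusted p = 0.20). The GLC7 and MOB2 calls were also lost against WTa alone, where GLC7 was at -0.08 (adjusted p = 0.40) and MOB2 at -0.12 (adjusted p = 0.15). The MOB1 call was lost against WTb alone (0.25, adjusted p = 0.063). Without replicate 1 of mud1D at 48 h PHO85 was at 0.21 (adjusted p = 0.055). In nam8D at 48 h, KIN28 was higher (0.38, SE 0.07, adjusted p = 6.6e-05) and PHO85 (-0.28, SE 0.10, adjusted p = 0.014) and MOB2 (-0.24, SE 0.06, adjusted p = 0.0014) were lower (32.5% of all higher, 41.1% lower). The KIN28 value on mature counts alone was -0.07 (adjusted p = 0.39), the PHO85 value without replicate 1 of nam8D at 48 h was -0.09 (adjusted p = 0.35), and MOB2 was at 0.02 against WTa alone (adjusted p = 0.80). With factors from targets outside the ribosomal protein genes, PHO85 (-0.13, adjusted p = 0.15) and MOB2 (-0.08, adjusted p = 0.35) did not pass, while GLC7 (0.25, adjusted p = 0.0018) and MOB1 (0.30, adjusted p = 0.0039) did. GLC7 in nam8D, at 0.09 against pooled wild type, was lower than in WTa alone (-0.22, adjusted p = 0.021) and higher than in WTb alone (0.40, adjusted p = 0.00025). MOB1 there was higher than in WTa alone (0.47, adjusted p = 0.0012) and at -0.19 against WTb alone (adjusted p = 0.15). In log phase MOB1, MOB2 and KIN28 passed in mud1D (24.2% of all higher, 17.4% lower) and MOB1 and MOB2 in nam8D (23.4% higher, 15.1% lower), with log2 changes between 0.19 and 0.32. None of these calls passed against WTb alone or when factors were taken outside the ribosomal protein genes. The nam8D call of MOB1 was lost when any of 12 libraries was left out and that of MOB2 when any of 6 was (values from 0.13 to 0.32 and from 0.15 to 0.19). In mud1D the KIN28 call was lost without any of 4 libraries (0.15 to 0.22) and the MOB1 call without any of 2 (0.28 to 0.30), replicate 2 of WTa in both cases among them. Between the mutants none of the 5 genes passed in log phase (0.377% of all higher, 0.377% lower). At 48 h PHO85 (-0.64, SE 0.11, adjusted p = 9.4e-05) and MOB1 (-0.44, SE 0.12, adjusted p = 0.0033) were less abundant in nam8D (26.8% higher, 31.3% lower). With factors from outside the ribosomal protein genes MOB1 was at -0.24 (adjusted p = 0.051) and MOB2 was called higher (0.34, adjusted p = 0.0023). WTa was above WTb for GLC7 and below it for MOB1 and MOB2 in both phases (26.0% of all higher and 27.9% lower in log phase, 32.1% higher and 25.3% lower at 48 h). The MOB1 difference in log phase (-0.33, SE 0.13, adjusted p = 0.043) was lost when any of 11 libraries was left out (-0.36 to -0.29). For KIN28, PHO85 and MOB2 in mud1D the change in abundance from log phase to 48 h differed from that of wild type (28.3% of all above, 39.2% below). In nam8D it differed for PHO85 and MOB2 (24.5% of all above, 35.8% below). With factors from outside the ribosomal protein genes the nam8D values of PHO85 (-0.06, adjusted p = 0.64) and MOB2 (-0.10, adjusted p = 0.44) did not pass, while KIN28 (0.56, adjusted p = 3.3e-05) and GLC7 (0.30, adjusted p = 0.0093) did.

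**Figure D4:**
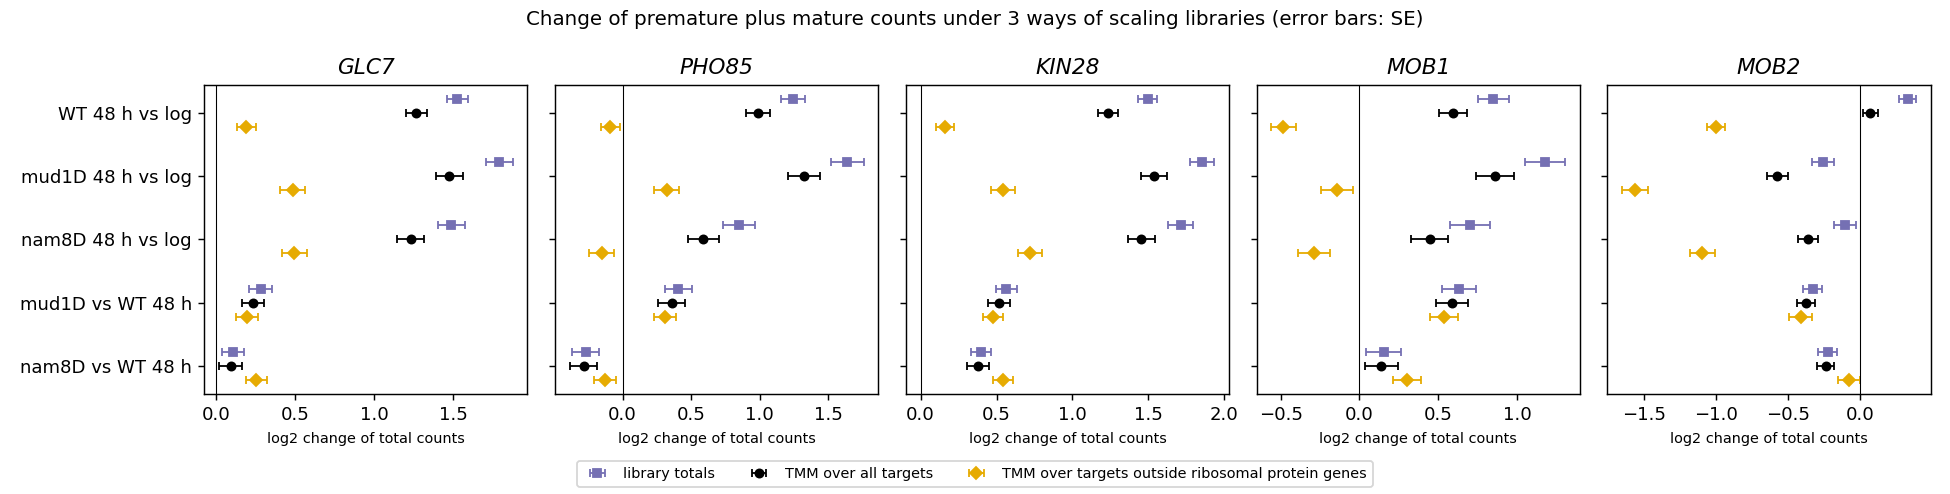
Change of log2 premature plus mature counts (horizontal axis) of each gene in 5 comparisons (vertical axis) with libraries scaled by their totals (purple squares), by TMM over all targets (black circles) or by TMM over targets outside the ribosomal protein genes (yellow diamonds); error bars are the SE. In the comparisons of 48 h with log phase the yellow values lie lower for every gene, such as 0.19 against 1.27 for GLC7 in wild type, while between strains the 3 values differ less, such as 0.19 against 0.23 for GLC7 in mud1D.

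Introns of related genes were counted in 2 lists. A first list held 5 further signalling genes with introns: BMH2 (an adaptor that binds phosphorylated proteins), MRK1 (a kinase of the glycogen synthase kinase family), CNB1 (the regulatory subunit of calcineurin), PTC7 (a protein phosphatase) and ASC1 (the yeast RACK1). A second held 9 genes of chromosomes and the mitotic apparatus, namely MCM21, NBL1, RFA2, DYN2, TUB1, TUB3, SRC1, HPC2 and CIN2. TUB1 and TUB3 are near-identical alpha-tubulin genes whose reads the counting may split. In wild type at 48 h (51.7% of all introns higher, 28.7% lower), 2 of 5 signalling introns rose and 1 fell, with the largest change in BMH2 (1.60, SE 0.10, adjusted p = 1.7e-16). Of the second list 3 of 9 rose and 5 fell, with the largest in HPC2 (-1.46, SE 0.13, adjusted p = 1.4e-12), a gene of histone regulation. In mud1D at 48 h (64.9% higher, 15.5% lower) 3 of 5 rose and none fell (BMH2 by 4.41, SE 0.13, adjusted p = 2.5e-25). Of the second list 5 of 9 rose and 1 fell (TUB1 by 2.62, SE 0.14, adjusted p = 6e-18). In nam8D (70.9% higher, 9.81% lower) 4 of 5 rose and none fell (BMH2 by 4.17, SE 0.13, adjusted p = 1.2e-24), and of the second list 6 of 9 rose and 1 fell (CIN2, a tubulin-folding gene, by 3.13, SE 0.33, adjusted p = 1.2e-10).

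At 48 h all 5 signalling introns and all 9 of the second list were less spliced than wild type in each mutant, as were 90.6% of all introns in mud1D and 88.3% in nam8D. The largest differences were 2.55 for BMH2 (SE 0.11, adjusted p = 6.2e-20) and 2.60 for SRC1, a nuclear envelope gene (SE 0.14, adjusted p = 2.1e-17), in mud1D. In nam8D they were 2.76 for MRK1 (SE 0.14, adjusted p = 1.6e-18) and 1.85 for MCM21, a kinetochore gene (SE 0.16, adjusted p = 1.8e-12). The median differences were 1.54 and 1.39 for the lists in mud1D and 2.56 and 1.21 in nam8D, against 0.86 and 0.81 for the 5 introns described above. In log phase 3 of 5 signalling introns and 5 of 9 of the second list were higher in mud1D (47.9% of all introns), led by PTC7 (1.37, SE 0.13, adjusted p = 8.5e-11) and MCM21 (0.82, SE 0.16, adjusted p = 8.2e-05). In nam8D (29.4% of all introns) 3 of 5 and 3 of 9 were higher, led by MRK1 (2.82, SE 0.20, adjusted p = 1.7e-13) and MCM21 (0.82, SE 0.16, adjusted p = 0.00016). No intron of either list was called lower in log phase in either mutant, beside 7.92% of all introns in mud1D and 7.17% in nam8D.

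Across the 23 libraries, which share strains and growth phases, log2 premature over mature of KIN28 went most closely with the introns of COF1 (Pearson r = 0.97), RPL33B (0.97) and RPL28 (0.96). GLC7 went with RPL33A (0.95), APE2 (0.95) and SRB2 (0.93), PHO85 with PFY1 (0.92), RPO26 (0.91) and HRB1 (0.89), and MOB2 with RPL29 (0.94), DTD1 (0.94) and RPP1B (0.94). RPL33A and RPL33B are near-identical copies whose counts may be split. For MOB1 the closest introns were MRA1 (0.69), ACT1 (0.69) and CQD1 (0.68). Among the 5 themselves, GLC7 and KIN28 had an r of 0.80 and PHO85 and KIN28 of 0.75, while MOB1 had between -0.05 and 0.28 with the others. These are descriptions of libraries that fall into groups, and carry no test.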

How the data were processed

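The deposited tables hold whole-number counts of mature and premature products per intron and library, unnormalized as far as the headers and values show. Per the submitters' processing notes, FastQC, fastp 0.20.0, STAR 2.7.2b and build R64 were used. How reads were assigned to a product or strand, and whether molecular identifiers were counted, is not stated in the labels or headers. Exact binomial (Clopper-Pearson) 95% intervals therefore cover counting error only. The labels call a mutant mud1D, while its table's row names read mud1S; it was checked by MUD1 counts. Strain names in the labels recur across genotypes and entered only as an alternative term.

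Splicing was tested in R 4.3.3 with edgeR 4.0.16: each library gave a premature and a mature column, with library terms and, for premature columns, group terms, over 265 introns with a mean count of at least 20. Abundance was tested on the sum of both, with TMM factors and filterByExpr. Tests were two-sided with Benjamini-Hochberg adjustment at 0.05, over 13 comparisons per measure; the SE is the log2 change divided by the square root of F. Both fits were first tested on simulated data. CPM are counts scaled to the library's total. Likeness used log2 ratios with a pseudocount of 0.5. Replicates were checked for repeated libraries: any 2 replicates of a group had a chi-square of at least 12.0 times its degrees of freedom. Alternatives were limma 3.58.1 on log2 odds (pseudocount 0.5 or 5, or centred on the median intron), DESeq2 1.42.0, another or no count minimum or filter, other scaling, mature counts alone, replicate number blocks, strain names as terms, either wild-type set alone, fits of the compared groups only, and leaving each library out. Python 3.11.15 with numpy 2.4.6, pandas 2.3.3, scipy 1.17.1 and matplotlib 3.10.9 did the rest.

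The members, gene lists and the naming rule were chosen with earlier results of these data known. The rule named the 5 members, per list and comparison the counts called and the called intron with the largest change, per member the 3 introns of highest Pearson r, and MUD1. For the lists, changes between the mutants, between wild-type sets and in abundance are not reported here. The sequence of the MOB1 intron is not reported here.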

Additional observations from a re-analysis of the deposited data

Results flagged for a closer look

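The change of log2 premature over mature from log phase to 48 h differed between mutant and wild type by a test of the difference itself. For mud1D against wild type the difference was 1.44 for MOB2, 1.03 for GLC7, 1.01 for MOB1 and 0.41 for KIN28. For nam8D it was 1.58 for MOB1, 1.42 for MOB2, 0.80 for GLC7 and 0.32 for KIN28. The same test passed for 65.3% (mud1D) and 76.6% (nam8D) of all introns in this direction. The KIN28 call in nam8D was lost when any of 15 of the 23 libraries was left out. In mud1D it was lost without replicate 2 of mud1D at 48 h. Neither KIN28 call passed with WTb alone as wild type, and the nam8D call did not pass with WTa alone either. Centring on the median intron turned the sign of KIN28 in both mutants and of GLC7 in nam8D, and MOB2 in nam8D then did not pass.

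The change in abundance differed from that of wild type in mud1D by -0.64 for MOB2, 0.34 for PHO85 and 0.30 for KIN28, and in nam8D by -0.43 for MOB2 and -0.40 for PHO85. With factors from outside the ribosomal protein genes both nam8D values lost their call (-0.10 for MOB2 and -0.06 for PHO85). The PHO85 differences lost their call when any of 10 libraries (mud1D) or any of 6 (nam8D) was left out.

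Among pooled wild-type libraries in log phase, the lowest KIN28 level, 237 CPM in WTb replicate 3, lay far from the other 4 by Dixon's criterion at the 95% level. By chance about 1 in 20 groups is marked in this way, and 40 tests of a highest or lowest library were made.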

How the results depend on the processing

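Calls of single introns and genes changed most with the choice of wild-type set and with scaling. With WTb alone as wild type, log-phase splicing calls among the 5 introns fell. They went from 4 to 1 in mud1D and from 3 to 0 in nam8D. Abundance calls went from 3 to 0 in mud1D and from 2 (MOB1 and MOB2) to 1 in nam8D. That 1 call was GLC7, which was not called with both sets. Over all 265 the splicing calls fell from 148 to 83 in mud1D and from 97 to 33 in nam8D. The abundance calls fell from 110 to 27 and from 102 to 26. Signs also turned with WTb alone for splicing of GLC7 in wild type at 48 h (0.17), MOB2 in mud1D in log phase (0.21) and MOB1 in nam8D in log phase (0.10), and for abundance of MOB2 in nam8D in log phase (-0.0072). With WTa alone, abundance calls at 48 h in mud1D fell from 5 to 3, and GLC7 in mud1D (-0.080) and MOB2 in nam8D (0.021) turned; GLC7 in nam8D at 48 h, not called with both sets, was called lower with WTa alone (-0.22) and higher with WTb alone (0.40). Centring libraries on the median intron gave 3 in place of 5 calls for nam8D at 48 h against log phase, 2 in place of 5 for mud1D and 3 in place of 5 for nam8D against wild type at 48 h, 2 in place of 1 between the mutants in log phase and 5 in place of 2 between the wild-type sets at 48 h. Over all 265 introns it gave 209 in place of 214 for nam8D at 48 h against log phase. Against wild type at 48 h it gave 177 in place of 243 for mud1D and 181 in place of 237 for nam8D. It gave 152 in place of 96 between the mutants in log phase and 114 in place of 151 between the wild-type sets at 48 h. For the nam8D difference in change it gave 110 in place of 211. It turned PHO85 (-0.39) and MOB1 (-0.54) in mud1D and GLC7 (-0.48), PHO85 (-0.65), KIN28 (-0.14) and MOB1 (-0.31) in nam8D at 48 h against log phase. Against wild type at 48 h it turned PHO85 (-0.16), KIN28 (-0.039) and MOB1 (-0.51) in mud1D and PHO85 (-0.56), KIN28 (-0.092) and MOB2 (-0.19) in nam8D. For the difference in change it turned KIN28 in mud1D (-0.083) and GLC7 (-0.030) and KIN28 (-0.51) in nam8D. Centring removes a change shared by most introns by construction; the causes of the other shifts were not tested.

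With only the groups compared, splicing calls were 5 in place of 3 for nam8D in log phase and 1 in place of 3 between the mutants at 48 h (40 in place of 72 over all introns); the strain name as a term gave 1 (35 over all) in the latter, 83 in place of 125 introns between wild-type sets in log phase and 92 in place of 151 at 48 h. Abundance at 48 h against log phase turned for MOB2 in wild type under RLE factors (-0.17) and DESeq2 (-0.17), and under TMM outside ribosomal protein genes for PHO85 (-0.089), MOB1 (-0.48) and MOB2 (-1.003) in wild type, MOB1 in mud1D (-0.14) and PHO85 (-0.15) and MOB1 (-0.29) in nam8D. The last scaling left 0 of 3 abundance calls in mud1D in log phase; in nam8D it, RLE and DESeq2 left 0 of 2, and each of the 3 made the mud1D difference in change 5 calls in place of 3. Of all targets at 48 h against log phase, TMM outside ribosomal protein genes called 61 higher and 183 lower in wild type, 78 and 163 in mud1D and 80 and 163 in nam8D. Mature counts alone left 3 of 5 abundance calls in mud1D at 48 h, turned KIN28 in nam8D (-0.067), and called 17 in place of 2 targets between the mutants in log phase.

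Leaving out a library moved the calls for splicing in nam8D in log phase to between 2 and 5 (5 without replicate 3 of WTa) and between the mutants at 48 h to between 1 and 3 (1 without replicate 2 or 3 of mud1D or 3 of nam8D). For abundance they ran from 1 to 3 in mud1D in log phase (1 without replicate 2 of WTa), from 0 to 2 in nam8D and from 1 to 2 for the nam8D difference in change, and the targets called between the mutants in log phase from 0 to 4. Replicate numbers are shared between groups, and same-numbered libraries had a median correlation of deviations of 0.01 for splicing and -0.01 for abundance over 77 pairs each. Of 21 pairs of groups with 3 shared numbers, 1 per measure had all 3 correlations over 0.1: mud1D in log phase and at 48 h for abundance (0.13 to 0.39), where all 5 calls held under the block, and WTb at 48 h and mud1D in log phase for splicing (0.11 to 0.20), which were not compared. Elsewhere the numbers were taken only to name libraries. With the replicate number as a block, the abundance calls in nam8D in log phase fell from 2 to 1; no other count of the 5 moved by over 1.5 times. Dropping the count minimum tested the same 265 introns. MOB2 with 19 to 74 and MOB1 with 76 to 265 premature counts per library are limited by depth.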
